A study of Bos indicus with 6 samples.

Results

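The genes described are those that encode the integrin subunits, the laminin chains and the nidogens, in the isthmus of the bovine oviduct. They were taken by gene symbol from the deposited list, as every symbol of the ITGA and ITGB series, of the LAMA, LAMB and LAMC series and of NID1 and NID2. This gave 37 rows among 24616 genes, which were 17 integrin alpha, 7 integrin beta, 5 laminin alpha, 3 laminin beta, 3 laminin gamma and 2 nidogen rows. The rows hold 36 distinct symbols, since LAMC1 stands under a pair of Ensembl identifiers. ITGAX, ITGB3, LAMB2 and LAMC3 have no row in the list used and were not analysed here. The samples were isthmus tissue of 6 Nelore cows (Bos indicus, multiparous, healthy), with 1 library per cow. All cows were synchronized with a prostaglandin F2 alpha analog, a GnRH agonist, an intravaginal progesterone device and estradiol benzoate, and ovulated after a GnRH injection on day 0. The 3 cows of the large follicle-large corpus luteum group (LF/LCL) also received the prostaglandin analog at insertion of the device, which was removed 42 h before GnRH. The 3 cows of the small follicle-small corpus luteum group (SF/SCL) did not receive it, and their device was removed 30 h before GnRH. Tissue spanning the whole wall of the oviduct beside the corpus luteum was taken on day 4. The cows were picked for sequencing as the highest ranked of LF/LCL and the lowest ranked of SF/SCL by follicle, corpus luteum and hormone measures, so they are the extremes of their groups.

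Integrins are receptors of the cell surface made of 1 alpha and 1 beta chain, which bind the matrix outside the cell and couple to actin or intermediate filaments inside it. Laminins are trimers of an alpha, a beta and a gamma chain that polymerize into the sheet of the basement membrane, and nidogens link that sheet to the type IV collagen network. In the oviduct, basement membranes lie under the luminal epithelium, around each smooth muscle cell and around the capillaries. The chain of each kind that a tissue makes depends largely on the cell type, as LAMA3 and LAMB3 are typical of epithelia and LAMA2 and LAMA4 of muscle and vessels.

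The libraries held 23899117 to 34193164 uniquely mapped reads. The values are normalized counts, which are reads scaled by the size factor DESeq gave to each library, and they compare a gene between cows but not different genes, since no gene lengths were used. SF/SCL cow 489215 stood apart from the other cows, as it was the highest or the lowest of the 6 libraries for 72.4% of all genes tested, against 15.6% to 38.0% for each other cow. Values are therefore given for each cow, and comparisons with and without cow 489215. Its library had the smallest size factor, 0.751, and the fewest genes detected, 16944 against 17348 to 17718 in the other cows. By the read numbers in the paper, it also had the lowest share of unique reads among the mapped reads of the isthmus libraries. Whether library quality has a part in its values was not tested. The smooth muscle markers (8 of 10 symbols listed, none at 0) summed to 722173 to 845718 in LF/LCL, and to 330677 and 395326 in SF/SCL cows 856 and 97 against 1222554 in cow 489215. These markers did not move together, as 5 of the 8 were highest in cow 489215, among them ACTA2 at 533926. There LMOD1 lay within the LF/LCL range and MYH11, at 116653, below it, while SYNM, at 4730, was the lowest of all cows. The epithelial markers (9 of 10 listed) summed to 30205 to 47469 in LF/LCL and to 51187 to 75022 in SF/SCL. Of the 9, 7 had a log2 fold change above 0 and 2, ELF3 and CLDN4, below 0. Ciliated cell markers (7 of 8 detected, with PIFO at 0) ranged from 13541 to 17270 in LF/LCL, and were at 34041 and 35630.0 in cows 856 and 97 and at 11074 in cow 489215. In cow 489215 they did not move together. There FOXJ1 (2609), DNAH5 (626) and TEKT1 (1341) were below the LF/LCL range, DNAI1 (783) and CCDC39 (1744) above it, and RSPH1 and SPAG6 within it. The fibroblast markers were at 413299 to 527082 in LF/LCL and at 206717 to 309346 in SF/SCL, and the endothelial markers at 11656.5 to 14384 and 8341 to 15488. Leukocyte markers overlapped between the groups, with sums of 5302 to 6965 in LF/LCL and 4909 to 8660.0 in SF/SCL. Platelet and erythrocyte markers stayed at sums of at most 4.56 and 25.3. The mesothelial sum was 2469 to 3346 in LF/LCL and 3512 to 26909 in SF/SCL, carried by MSLN and WT1. Its members did not move together, as LRRN4 was at 175 to 412 in LF/LCL and at 3.80 to 16.3 in SF/SCL, and WT1 was lower in cow 489215, at 1037, than in every LF/LCL cow. The Schwann cell sum was 3265 to 5730.5 and 9113 to 32394.5, carried by S100B. The part of these differences between libraries in the results below was not tested.

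**Figure D1:**
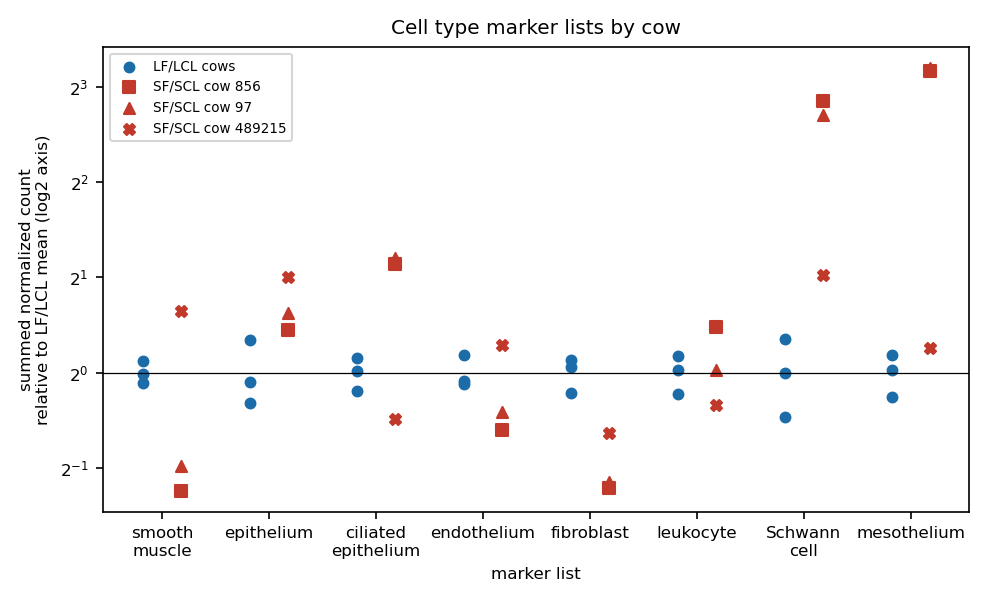
Summed normalized count of each cell type marker list in every cow, relative to the mean of the LF/LCL cows (log2 axis), with circles for the LF/LCL cows and squares, triangles and crosses for SF/SCL cows 856, 97 and 489215. The smooth muscle sum is lowest in cows 856 and 97 and highest in cow 489215, at 330677, 395326 and 1222554, where 5 of its 8 markers are highest in cow 489215.

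Most integrin, laminin and nidogen genes had lower counts in SF/SCL, while LAMA3 and LAMA1 were the genes that stood above the LF/LCL range in all SF/SCL cows. In cow 489215 they did so only narrowly, at 2105 against 2069 in cow 617 for LAMA3 and 89.2 against 87.3 in cow 79 for LAMA1. As a share of all reads counted, both genes lay within the LF/LCL range in cow 489215, so this order depends on its size factor. Of the 37 rows, 34 passed the filter on low and variable values and were tested. In these, 27 had a log2 fold change (SF/SCL over LF/LCL) below 0 and 7 above 0, and the median was -0.38, against -0.02 over all 15387 genes tested. Because the 2 groups are bulk tissue, fewer cells of a type and less RNA per cell cannot be told apart. None of the 34 had an adjusted p-value under 0.05 with limma, as was the case for all genes tested (0%), and the smallest was 0.351. Without adjustment, 7 of the 34 (20.6%) had a p-value under 0.05, against 8.66% of all genes tested. Of these, 6 were higher in LF/LCL, namely ITGA8, ITGA11, LAMC1, ITGA9, ITGA1 and LAMB3 (background 4.48%), and 1 was higher in SF/SCL, LAMA3 (background 4.19%). The edgeR test on the recovered reads called 0 genes (0%) at the adjusted threshold and 8 of the 34 at an unadjusted p-value under 0.05, against 8.58% of all genes. DESeq2 called ITGA8, ITGA11, LAMC1 and LAMA3 at the adjusted threshold, 4 of 34, against 2.66% of all genes. In 10 of the 34 (29.4%) the ranges of the groups were apart, against 18.1% of all genes tested. LF/LCL was the higher group for 9 of them (background 8.6%) and SF/SCL for 1 (background 9.51%).

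**Figure D2:**
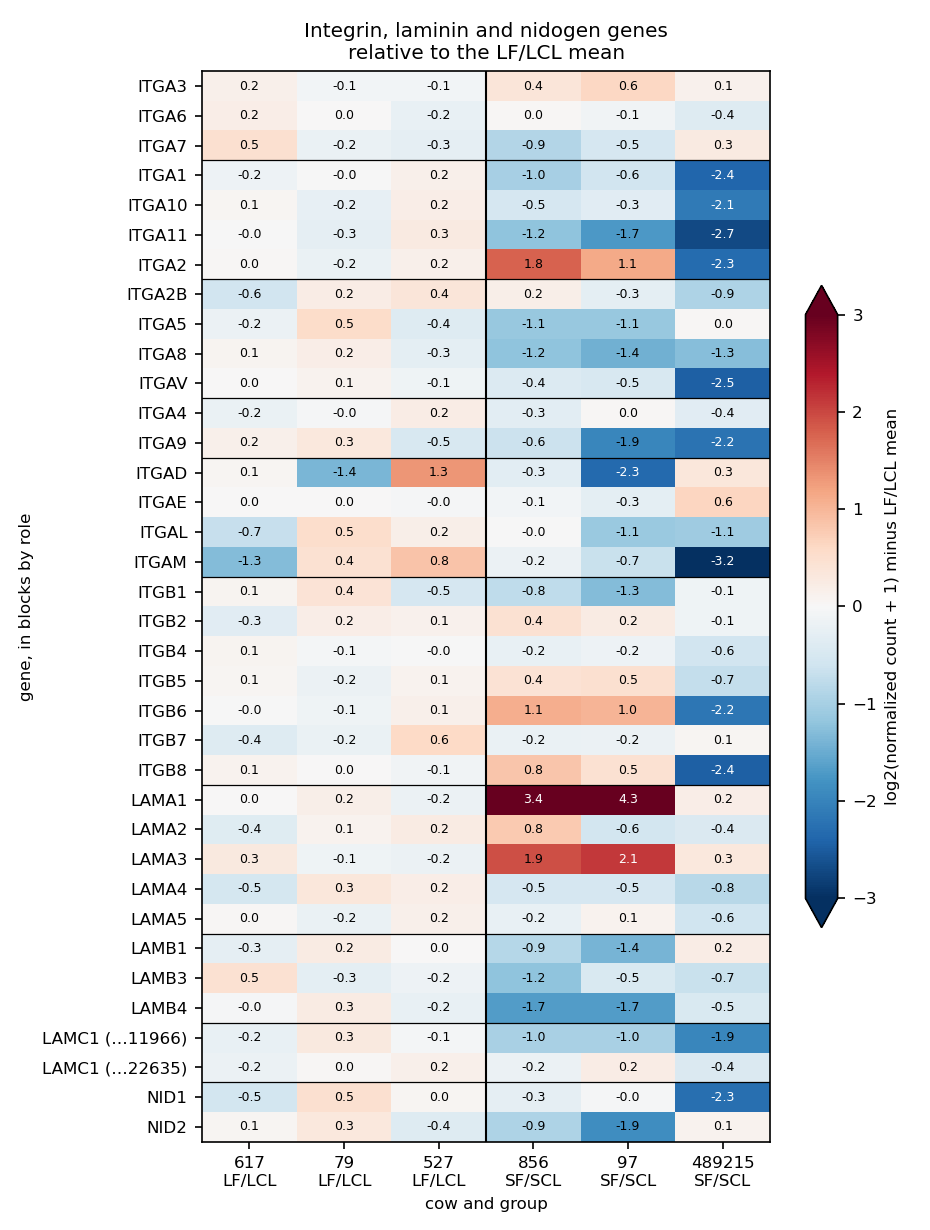
The rows reported here (in blocks by role) in each cow, as log2(normalized count + 1) minus the mean of the 3 LF/LCL cows, with values beyond 3 drawn in the end colours. LAMA1 and LAMA3 are red in SF/SCL cows 856 and 97, and most other rows are blue in at least 1 SF/SCL cow, with cow 489215 lowest in 20 of the 34 rows tested.

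Among the laminin alpha chains, LAMA3, the chain that anchors epithelia through the hemidesmosome, had the largest fold change of those tested. LAMA3 (ENSBTAG00000027181) had normalized counts of 2069, 1537 and 1497 in LF/LCL cows 617, 79 and 527, and of 6437, 7304 and 2105 in SF/SCL cows 856, 97 and 489215. Every SF/SCL cow was above every LF/LCL cow, with cow 489215 just above cow 617. The mean was 1701 ± 320 (SD, n = 3) in LF/LCL cows, against 5282 ± 2785 (SD, n = 3) in SF/SCL, 3.11-fold higher. The log2 fold change was 1.46 (adjusted p = 0.467 in limma, standard error 0.48), and across the alternatives the adjusted p-value from limma, edgeR or DESeq2 ran from 0.0023 to 0.999. Without cow 489215 LAMA3 was 4.04-fold higher in SF/SCL, with a log2 fold change of 2.03.

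LAMA1, the laminin chain of early embryonic and some epithelial basement membranes, did not enter the test, because its SD over the 6 cows exceeded its mean, and it is named here because its values were seen. LAMA1 (ENSBTAG00000018160) had 77.5, 87.3 and 67.6 in LF/LCL cows 617, 79 and 527, and 819 and 1547 in SF/SCL cows 856 and 97, against 89.2 in cow 489215. The first 2 SF/SCL cows were 10.6-fold and 20.0-fold above the LF/LCL mean of 77.5 ± 9.83 (SD, n = 3), while cow 489215 was 1.15-fold above it. With the filter on the mean alone, the log2 fold change was 2.64, with an adjusted p-value of 0.524 from limma.

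The other alpha chains did not follow LAMA3. LAMA5, the common alpha chain of adult epithelial and endothelial basement membranes, had 8053, 6761 and 8707 in LF/LCL cows 617, 79 and 527, and 6665, 8371 and 5128 in SF/SCL cows 856, 97 and 489215. The groups overlapped, and the log2 fold change was -0.24 (standard error 0.23). LAMA2, the main alpha chain around muscle cells, had 2985, 4138 and 4526 in LF/LCL and 6627, 2598 and 2812 in SF/SCL, in the same order of cows. Cow 856 was the highest of all cows and cow 97 the lowest, so that the mean of SF/SCL, 4012 ± 2267 (SD, n = 3), was close to that of LF/LCL, 3883 ± 802 (SD, n = 3). LAMA4, the alpha chain of vessel walls and muscle, had a log2 fold change of -0.62 (adjusted p = 0.597 in limma, standard error 0.27), with overlapping groups.

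Of the laminin beta and gamma chains, LAMB3 and 1 row of LAMC1 were lower in every SF/SCL cow. LAMB1 and LAMC1 are the widely expressed chains that pair with most alpha chains, and LAMB3 pairs with LAMA3. LAMC1 under ENSBTAG00000011966 had 7141, 10283 and 8046 in LF/LCL cows 617, 79 and 527, and 4294, 4262 and 2175 in SF/SCL cows 856, 97 and 489215. All SF/SCL cows were below all LF/LCL cows, with a mean of 3577 ± 1214 (SD, n = 3) against 8490.1 ± 1617 (SD, n = 3), or 2.37-fold higher in LF/LCL. The log2 fold change was -1.30 (adjusted p = 0.381 in limma, standard error 0.32), and it was -0.97 without cow 489215. The second row named LAMC1, ENSBTAG00000022635, had 4131, 4779 and 5228 in LF/LCL and 4186, 5444 and 3496 in SF/SCL, in the same order of cows. Its groups overlapped and its log2 fold change was -0.12 (standard error 0.22). What the second row stands for was not resolved here, and if both rows belong to 1 gene its reads could have been divided between them.

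LAMB1 had 17103, 24208 and 20695 in LF/LCL cows 617, 79 and 527, and 11294 and 7807 in SF/SCL cows 856 and 97, against 23967 in cow 489215. Cows 856 and 97 lay below the LF/LCL range and cow 489215 within it. The log2 fold change was -0.67 (standard error 0.42) with all cows and -1.12 without cow 489215. LAMB3 had 1283, 762 and 842 in LF/LCL and 404, 682 and 588 in SF/SCL, without overlap, a log2 fold change of -0.78 (adjusted p = 0.543 in limma, standard error 0.30). LAMB3 and its partner LAMA3 thus lay on opposite sides of the LF/LCL range in cows 856 and 97. LAMB4 was listed at 0 to 2.82 in all cows, which is at or under the floor of 3 reads that a count of 0 allows, so no difference was detectable at this depth.

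The nidogens differed from each other in where cow 489215 lay. NID2 had 7446, 8991 and 5509 in LF/LCL cows 617, 79 and 527, 3769.8 and 1982 in SF/SCL cows 856 and 97, and 7726 in cow 489215. Its log2 fold change was -0.89 (standard error 0.49) with all cows and -1.39 without cow 489215, when it was 2.54-fold higher in LF/LCL. NID1 had 1269.6, 2595 and 1910.4 in LF/LCL, 1543 and 1808 in cows 856 and 97, and 385 in cow 489215. Cows 856 and 97 lay within the LF/LCL range of NID1, and cow 489215 was at 0.200 times the LF/LCL mean of 1925 ± 663 (SD, n = 3). For NID1 the log2 fold change was -0.85 (standard error 0.62) with all cows and -0.14 without cow 489215.

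**Figure D3:**
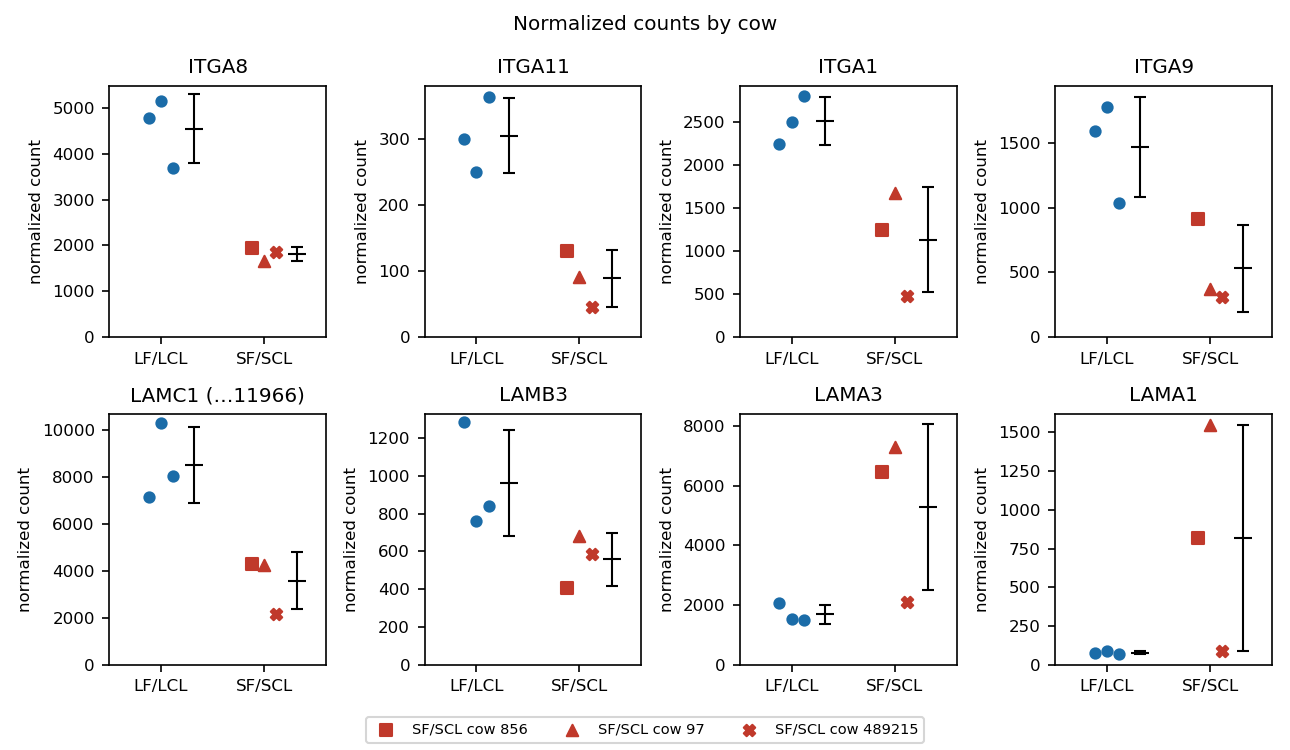
Normalized counts of 8 genes in every cow, with circles for the LF/LCL cows, squares, triangles and crosses for SF/SCL cows 856, 97 and 489215, and bars for the group mean ± SD (n = 3). The groups do not overlap in any panel, and for LAMA3 and LAMA1 cow 489215 (2105 and 89.2) lies near the LF/LCL cows.

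Of the 4 collagen-binding integrin alpha chains, ITGA1, ITGA10 and ITGA11 were lower in every SF/SCL cow than in every LF/LCL cow. ITGA11, a receptor for fibrillar collagen on fibroblasts, had 300.4, 251 and 365 in LF/LCL cows 617, 79 and 527, and 131, 91.0 and 45.3 in SF/SCL cows 856, 97 and 489215. This was 3.43-fold higher in LF/LCL, with a log2 fold change of -1.88 (adjusted p = 0.381 in limma, standard error 0.44). ITGA1, which binds type IV and other collagens on smooth muscle and capillary cells, had 2248, 2505 and 2807 in LF/LCL and 1250.3, 1679 and 479 in SF/SCL, in the same order of cows. Its log2 fold change was -1.32 (adjusted p = 0.485 in limma, standard error 0.46), and -0.79 without cow 489215. ITGA10, a collagen receptor best known from cartilage, was at 323 to 437 in LF/LCL and at 87.9 to 302 in SF/SCL, with a log2 fold change of -0.99 (standard error 0.50), and -0.43 without cow 489215. ITGA2, the collagen receptor of epithelia and platelets, had the opposite order in cows 856 and 97. It had 764, 648 and 826 in LF/LCL, 2539 and 1644 in cows 856 and 97, and 149 in cow 489215. For ITGA2 the log2 fold change was 0.20 (standard error 1.01) with all cows and 1.46 without cow 489215.

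Among the integrin alpha chains that recognize the RGD motif of fibronectin, vitronectin and nephronectin, ITGA8 had the smallest fitted p-value of all 34 rows. ITGA8 (ENSBTAG00000007602), a chain of smooth muscle and other contractile cells, had 4778, 5150.2 and 3700.4 in LF/LCL cows 617, 79 and 527, and 1937, 1651 and 1867 in SF/SCL cows 856, 97 and 489215. The groups were well apart, and cow 489215 lay between the other SF/SCL cows. The mean was 4543 ± 753 (SD, n = 3) in LF/LCL cows, against 1818 ± 149 (SD, n = 3) in SF/SCL, or 0.400 times as high. The log2 fold change was -1.31 (adjusted p = 0.351 in limma, standard error 0.19) and stayed between -1.45 and -1.21 across the alternatives, with adjusted p-values from limma, edgeR or DESeq2 from 4.31e-06 to 0.999. ITGA5, the fibronectin receptor chain, had 4388, 7211 and 3792 in LF/LCL, 2227 and 2234 in cows 856 and 97, and 5078 in cow 489215. Its log2 fold change was -0.75 (standard error 0.41) and -1.14 without cow 489215. ITGAV, which pairs with several beta chains, was at 2766 to 3296 in LF/LCL, at 2301 and 2171 in cows 856 and 97, and at 553 in cow 489215, without overlap (log2 fold change -1.12, standard error 0.55, and -0.44 without cow 489215). ITGA2B, the platelet chain, overlapped between the groups at 116 to 283, and 0 of 6 platelet markers passed the filter.

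The groups overlapped for all 3 laminin-binding alpha chains. ITGA6, a chain of epithelial hemidesmosomes and endothelium, had 7614, 6659.5 and 5692 in LF/LCL cows 617, 79 and 527, and 6759, 6111 and 5027 in SF/SCL cows 856, 97 and 489215. The groups overlapped, with a log2 fold change of -0.16 (standard error 0.20). ITGA7, the muscle laminin receptor, had 4439, 2761 and 2618 in LF/LCL and 1733, 2226 and 3825 in SF/SCL, in the same order, with cows 856 and 97 below the LF/LCL range and cow 489215 within it. Its log2 fold change was -0.37 (standard error 0.35) and -0.69 without cow 489215. ITGA3, the epithelial laminin receptor, was at 1655 to 1954 in LF/LCL, at 2237 and 2689.9 in cows 856 and 97, and at 1899.9 in cow 489215 (log2 fold change 0.36, standard error 0.20).

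ITGA9, whose ligands include tenascin and fibronectin, had 1593, 1781 and 1033 in LF/LCL cows 617, 79 and 527, and 914, 371 and 309 in SF/SCL cows 856, 97 and 489215. The groups did not overlap, with a mean 2.77-fold higher in LF/LCL and a log2 fold change of -1.60 (adjusted p = 0.420 in limma, standard error 0.45). ITGA4, a receptor of leukocytes for fibronectin and VCAM1, had 208, 234 and 277 in LF/LCL and 191, 245 and 186 in SF/SCL, in the same order, with overlapping groups. Of the leukocyte chains, ITGAE, the chain of intraepithelial lymphocytes, had 498, 495 and 482 in LF/LCL and 466, 403 and 767 in SF/SCL. The LF/LCL cows were close to each other, and cow 489215 was above all other cows. ITGAL, the lymphocyte chain, had 90.0, 211 and 164 in LF/LCL and 146, 67.2 and 69.2 in SF/SCL, with overlap. ITGAM, the myeloid chain, ranged from 41.9 to 188 in LF/LCL and from 10.7 to 91.9 in SF/SCL, and ITGAD was at 11.4 or less in all cows and did not pass the filter. Among the 11 leukocyte markers 0 had an unadjusted p-value under 0.05 in limma, where the smallest adjusted p-value was 0.675.

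The beta chain that most alpha chains share, ITGB1, had 72269, 91011 and 48534 in LF/LCL cows 617, 79 and 527, 40025 and 27906 in SF/SCL cows 856 and 97, and 62657 in cow 489215. Cows 856 and 97 lay below the LF/LCL range and cow 489215 within it, in the same way as for ITGA5, ITGA7, LAMB1 and NID2. For ITGB1 the log2 fold change was -0.73 (standard error 0.39) and -1.03 without cow 489215. ITGB4, the hemidesmosomal partner of ITGA6, had 12137, 11080.4 and 11381 in LF/LCL and 9823, 10347 and 7734 in SF/SCL, in the same order. Its groups did not overlap, but the mean was only 1.24-fold higher in LF/LCL (log2 fold change -0.32, standard error 0.19). ITGB6, an epithelial partner of ITGAV, had 122, 114 and 137 in LF/LCL, 266 and 251 in cows 856 and 97, and 26.6 in cow 489215. Its log2 fold change was -0.02 (standard error 0.89) with all cows in limma, 0.55 in edgeR and 1.05 in limma without cow 489215. ITGB5 and ITGB8, which also pair with ITGAV, had the same order as ITGB6, above the LF/LCL range in cows 856 and 97 and below it in cow 489215. The leukocyte chains ITGB2 and ITGB7 overlapped between the groups, with log2 fold changes of 0.19 and -0.11.

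Cow 489215 lay below all LF/LCL cows for 25 of the 37 rows, within their range for 9 and above it for 3. For 5 rows, among them ITGA2, ITGB5, ITGB6 and ITGB8, cows 856 and 97 were above every LF/LCL cow and cow 489215 was below every one. Cow 489215 was the lowest of the 6 cows in 20 of the 34 rows tested (58.8%) and the highest in 1, against 35.7% and 36.7% of all genes tested. The median SD of the log2 values within SF/SCL was 0.65 for the 34 rows, against 0.53 over all genes tested, and between cows 856 and 97 alone it was 0.21 and 0.13. Within LF/LCL it was 0.26 and 0.17.

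Without cow 489215, limma called 16 of the 34 rows at the adjusted threshold (47.1%), against 18.2% of all genes tested. Higher in LF/LCL were 9 of the 34, ITGA11, NID2, ITGA8, ITGA5, LAMB1, ITGB1, LAMC1 (ENSBTAG00000011966), ITGA1 and ITGAV, with a background of 7.92%. Higher in SF/SCL were 7, among them LAMA3, ITGA2, ITGB6, ITGB8, ITGA3 and ITGB5, with a background of 10.3%. The log2 fold changes of the 16 ran from -1.46 for ITGA11 to 2.03 for LAMA3, and the median over the 34 rows was -0.19, against -0.0009 over all genes. In 23 of the 34 rows the group ranges were then apart, where 52% of all genes tested did not overlap between 3 and 2 cows. Leaving out any other single cow gave 0 called rows.

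**Figure D4:**
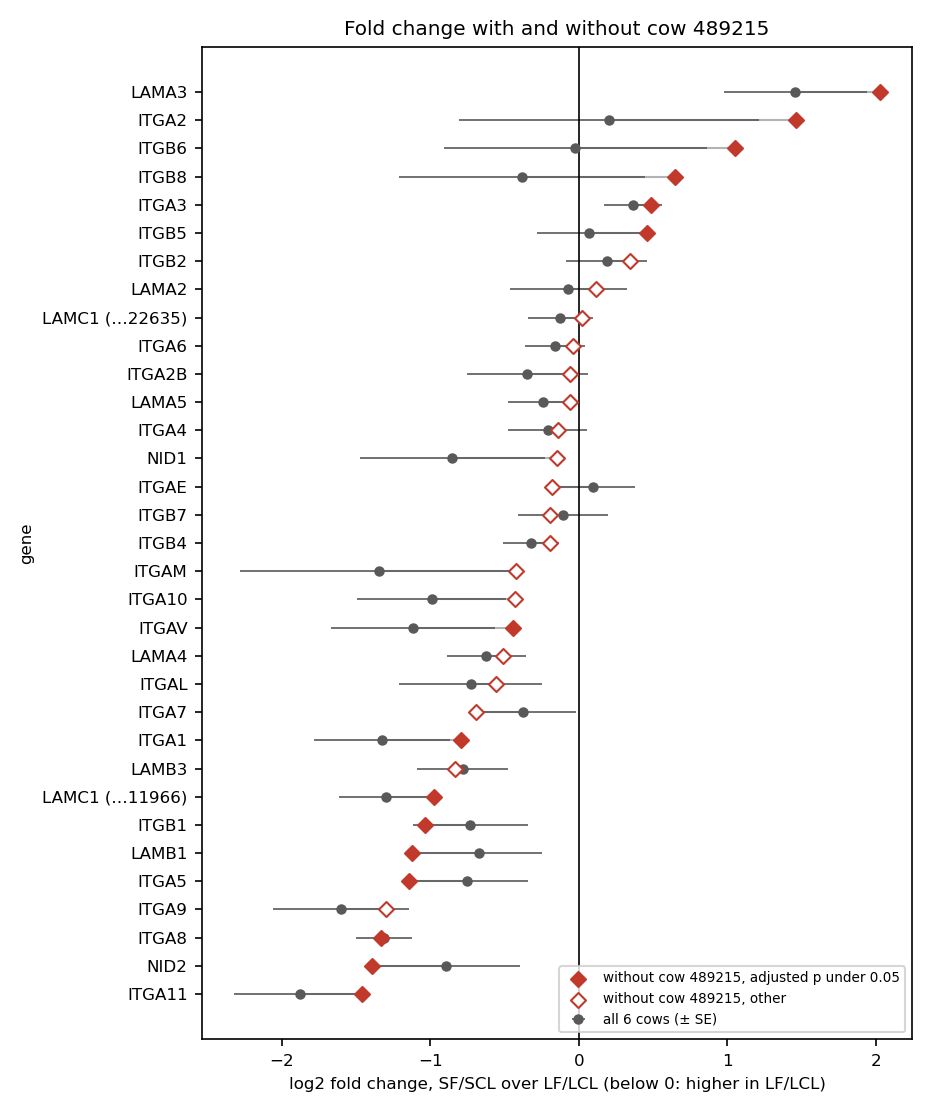
Log2 fold change (SF/SCL over LF/LCL) of the rows tested with limma and reported here, as grey circles with standard errors for all 6 cows and as diamonds without cow 489215, filled where the adjusted p-value was under 0.05. ITGA8 stays near -1.31, while ITGA2 and ITGB6 move from 0.20 and -0.02 to 1.46 and 1.05.

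Ratios of 2 genes within a library do not depend on the size factor. A length effect that is the same in every library also cancels in their difference between cows. A length effect that differs between libraries does not cancel and was not tested, since no gene lengths were used. The pairs were chosen after the values had been seen and are given as a description. The log2 ratio of LAMA3 to LAMA5 was -1.96, -2.14 and -2.54 in LF/LCL cows 617, 79 and 527, and -0.05, -0.20 and -1.28 in SF/SCL cows 856, 97 and 489215. All SF/SCL cows were above all LF/LCL cows, with means of -0.51 ± 0.67 and -2.21 ± 0.30 (SD, n = 3 each). The log2 ratio of LAMA3 to LAMA4 was likewise higher in every SF/SCL cow, from -0.15 to 1.31, than in LF/LCL, from -1.77 to -0.49. For ITGA2 to ITGA1 the LF/LCL cows lay from -1.95 to -1.56, and cow 489215, at -1.68, lay among them, while cows 856 and 97 were at 1.02 and -0.03. The groups also overlapped for the other ratios computed, ITGA3 to ITGA5, ITGB6 to ITGB1 and NID1 to NID2. Their mean differences, SF/SCL minus LF/LCL, were 1.11, 0.70 and 0.04. Summed over the 37 rows, the genes took 5934 to 7843 RPM, the rate of reads among all reads counted, in LF/LCL and 4273 to 5078 RPM in SF/SCL, without overlap. ITGB1 held the most reads of the 37 rows in every cow, so it weighs heavily in these sums, and its normalized counts overlapped between the groups. On this scale the integrin sums, 3499 to 5192 RPM in LF/LCL and 2550 to 3056 RPM in SF/SCL, and the nidogen sums were apart too. The laminin sums overlapped, at 1795 to 2220 RPM in LF/LCL and 1283 to 1818 RPM in SF/SCL. RPM does not use the size factors. In normalized counts, the integrin and nidogen sums of cow 489215 lay within the LF/LCL range, so their separation depends on the scale.

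The other constituents of the basement membrane and ligands of these receptors were taken as a list of 30 symbols, of which 29 were listed and 27 tested. Of the 27, 23 had higher values in LF/LCL, 13 of them at an unadjusted p-value under 0.05, and 0 had such a p-value in the SF/SCL direction, against 4.48% and 4.19% of all genes tested. The median log2 fold change was -0.78, and 0 passed the adjusted threshold with limma, where the smallest adjusted p-value was 0.351. Without cow 489215, 16 of the 27 were called higher in LF/LCL and 1 in SF/SCL, against 7.92% and 10.3% of all genes tested. COL17A1, a collagen of the hemidesmosome that did not pass the filter and is named here after its values were seen, ran the other way in 2 cows. It had 27.2, 13.1 and 27.2 in LF/LCL cows 617, 79 and 527, 791 and 567 in SF/SCL cows 856 and 97, and 17.3 in cow 489215. The 6 genes with the largest change among those with an unadjusted p-value under 0.05 were 5 chains of type IV collagen, to which nidogens bind, and FN1. COL4A4 had 316, 261 and 292 in LF/LCL cows 617, 79 and 527, and 106, 72.6 and 17.3 in SF/SCL cows 856, 97 and 489215, a log2 fold change of -2.46 (standard error 0.66), and -1.70 without cow 489215. COL4A3, its partner in the same trimer, had a log2 fold change of -2.38 (standard error 0.84), and -1.38 without cow 489215. The widely expressed chains COL4A1 and COL4A2 had -1.27 and -1.38 with all cows. COL4A6, a chain of smooth muscle basement membranes, had -1.26, and FN1, the ligand of ITGA5 and ITGA8, had -1.22 (standard error 0.30). For all 6 of these genes the groups did not overlap, against 18.1% of all genes tested. Since the 6 were picked by p-value and change in these same values, this adds no separate support.

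Integrin adaptor and signalling genes, with membrane partners such as tetraspanins and the dystrophin complex, were taken as a list of 46 symbols, of which 43 were listed and 41 tested. Here 29 had higher values in LF/LCL and 12 in SF/SCL, with a median log2 fold change of -0.33. Without adjustment, p-values under 0.05 were found for 2 genes in the LF/LCL direction, FLNA and BCAR1, and for 1 in the SF/SCL direction, the tetraspanin CD9, which are named here after their values were seen, where 8.66% of all genes tested reached it. None passed the adjusted threshold with limma, the smallest adjusted p-value being 0.514, and without cow 489215 there were 12 calls in the LF/LCL direction and 4 in the other among the 41, against 7.92% and 10.3% of all genes tested. Cow 489215 was the highest of the 6 cows for 19 of the 43 rows and the lowest for 17, where it was so for 36.7% and 35.7% of all genes tested.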

How the data were processed

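Total RNA of the isthmus of 6 cows, 1 library each, was sequenced after poly(A) library preparation. The authors aligned the reads with TopHat2 2.0.8 and Bowtie2 2.1.0 to the masked bovine assembly, sorted them with SAMtools 0.1.18, counted unique reads per Ensembl gene with HTSeq 0.5.4p2, and deposited a signal per gene and library, the read count divided by the DESeq 1.12.1 size factor. The strand setting of the counting is not given in the sources used here, so reads of overlapping antisense genes cannot be told apart. Multimapped reads were not counted, which can lower genes with near-identical copies.

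Whole reads were recovered from the deposited signal: 100% of 147696 values matched a whole number of reads within a tolerance of 0.0011 normalized counts. Size factors ran from 0.751 to 1.32, and the floor of 3 reads corresponded to 2.28 to 3.99 normalized counts, which covers counting error only. The 15387 genes whose mean exceeded both 5 and the SD between libraries were fitted with limma 3.58.1 (trend and robust) on log2(value + 1), and p-values were adjusted by Benjamini-Hochberg over all of them. A fold change on this scale understates that of low genes. The p-values measure the spread between the cows sequenced. Alternatives were edgeR 4.0.16 (quasi-likelihood, which called 0 genes on the recovered reads), DESeq2 1.42.0, limma-voom, other scalings, filters and pseudocounts (0.5 and 5), and leaving out each cow. Scripts were tested on simulated data.

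Groups were taken from the sample titles. The members and the lists of roles, partners and markers were chosen with earlier results of these data known. Values in all cows were given for members with an unadjusted p-value under 0.05, for the 12 with the largest change among the 16 past the adjusted threshold without cow 489215, and for the 2 highest of each role class. At most 6 partner genes, those with the largest change among those with an unadjusted p-value under 0.05, were named. Gene lengths, coordinates and sequences were not used here, so the planned levels per length are not given. The counts cover all members, of which 1 is not reported here by itself.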

Additional observations from a re-analysis of the deposited data

How the results depend on the processing

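With limma, edgeR (with either scaling) and limma-voom, and under each filter and pseudocount, 0 genes and 0 of the members passed the adjusted threshold with all 6 cows. DESeq2 called 409 genes and 4 of the members. Leaving out 1 cow gave 0 to 2827 genes and 0 to 16 of the members past the adjusted threshold, with the upper values reached without cow 489215 and 0 without any other cow. Of the members, 4 (without cow 527) to 19 (without cow 489215) had an unadjusted p-value under 0.05 in limma. The count over all genes also changed with the cows used. It was 1333 of 15387 with all cows and 909 of 15388 without cow 617, where 6 members had such a p-value. The groups did not overlap for 10 to 23 members (16 without cow 617 and 23 without cow 489215). Without cow 489215, 52% of all genes tested did not overlap, as smaller groups overlap less by construction. These counts are therefore no result about the members alone. The median log2 fold change stayed between -0.58 and -0.19. Other tools, scalings, filters and pseudocounts turned the direction of 3 of the members reported here. ITGB6 was at 0.55 in edgeR with either scaling and in DESeq2 (0.55), at 0.079 in limma-voom and at 0.011 with a pseudocount of 5. ITGB8 was at 0.16 and LAMA2 at 0.041 and 0.047 in edgeR and at 0.047 in DESeq2. Leaving out 1 cow turned 8 members, with ranges of -0.58 to 1.46 for ITGA2, -0.18 to 0.28 for ITGAE, -0.14 to 0.46 for ITGB5, -0.58 to 1.05 for ITGB6, -0.30 to 0.19 for ITGB7, -0.99 to 0.65 for ITGB8, -0.50 to 0.17 for LAMA2 and -0.29 to 0.025 for LAMC1 (ENSBTAG00000022635). The cause was not tested. No paired analysis was possible because the cows of the groups are different animals and share no replicate number. Genes at or under the floor of 3 reads, such as LAMB4, cannot be compared at this depth.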
